A study of Homo sapiens with 32 samples.

Results

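The mitochondrial ribosomal protein genes are the nuclear genes whose symbols begin with MRPL or MRPS and a number. They were selected by symbol, and 77 of the 18854 genes with a matched transcript met the rule. The large subunit took 51 of them, counting MRPS18A and MRPS30, whose proteins sit there, and the small subunit took 26. The series holds 32 human RNA-seq libraries in 16 groups of 2. A375 (melanoma), Cal51 and MDA-MB-231 (both breast cancer) and DLD1 (colorectal cancer) are established lines, and each was labelled as wild-type or as carrying G579S, a change in the kinase CDK11 that the design text ties to resistance. Cells of every line and genotype received either DMSO alone or the CDK11 inhibitor OTS964 at 100 nM, and all were taken at 6 h. Nothing in the labels says how the G579S cells were made or whether a line is 1 clone, and no label says whether replicates were separate cultures, so the p-values measure only the spread between these libraries.

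Mitochondria keep a ribosome of their own, which makes a small set of membrane subunits of oxidative phosphorylation from mitochondrial DNA. All of its proteins are encoded in the nucleus, made in the cytosol and imported, and they join ribosomal RNA made inside the organelle. Some descend from the bacterial ribosome and others were gained in mitochondria. CDK11 is a kinase that acts on transcription and on the splicing machinery, and OTS964 blocks its activity.

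Libraries held between 16091376 and 29742687 estimated reads. The 4 libraries labelled DLD1 wild-type went against their label. Under DMSO their 8 colorectal epithelium markers summed to between 24.9 and 40.6 TPM, against 1089 to 1121 TPM in DLD1 G579S under DMSO. In each of these groups 3 of the 8 were at or near 0. Under DMSO the 8 melanocyte markers of the libraries labelled DLD1 wild-type summed to between 629 and 669 TPM, against 12.1 to 13.1 TPM in DLD1 G579S and 405 to 423 TPM in A375 wild-type. Their 5 mesenchymal-like markers summed to between 3335 and 3527 TPM, against 41.7 to 42.2 TPM in DLD1 G579S and 3401 to 3477 TPM in A375 wild-type. The same colorectal markers summed to between 0.157 and 0.260 TPM in A375 wild-type under DMSO. CDK11B, which shares reads with its near copy CDK11A, was between 504 and 549 TPM in MDA-MB-231 G579S under DMSO and between 42.4 and 45.5 TPM in MDA-MB-231 wild-type. The base change itself cannot be read from these tables.

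The upstream stretches of 5 genes are printed as a description, and whether they bear on the response was not tested. MRPL46 and MRPS11 start back to back on opposite strands, MRPL49 starts back to back with FAU, and MRPS31 and MRPL51 carry the same ETS core and moved in opposite directions. Each line gives bases just upstream of the annotated start, 5′ to 3′ on the gene's strand, from RefSeq on GRCh38.p14, and capitals mark the ETS core CCGGAAG or its reverse complement. The windows are MRPL46 at chr15:88467389-88467508 on the minus strand, MRPS11 at chr15:88467588-88467707 on the plus strand, MRPL49 at chr11:65122135-65122182 on the plus strand, MRPS31 at chr13:40771191-40771310 on the minus strand and MRPL51 at chr12:6493263-6493382 on the minus strand.
MRPL46: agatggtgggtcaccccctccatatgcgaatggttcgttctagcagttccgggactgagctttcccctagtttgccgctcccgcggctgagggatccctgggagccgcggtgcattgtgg
MRPS11: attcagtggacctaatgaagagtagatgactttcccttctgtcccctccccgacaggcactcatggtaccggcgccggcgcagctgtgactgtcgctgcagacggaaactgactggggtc
MRPL49: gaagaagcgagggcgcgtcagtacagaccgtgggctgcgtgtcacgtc
MRPS31: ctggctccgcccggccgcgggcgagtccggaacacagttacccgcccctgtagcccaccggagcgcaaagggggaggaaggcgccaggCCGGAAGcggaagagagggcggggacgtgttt
MRPL51: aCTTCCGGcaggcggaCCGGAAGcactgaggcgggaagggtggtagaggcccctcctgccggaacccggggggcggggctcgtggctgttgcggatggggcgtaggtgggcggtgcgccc

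Promoter windows were matched for 69 of the 77 genes, each running from 250 bases before the start to 50 after it. The ETS core, bound by factors such as GABPA, was in 29 of the 69 (42.0%), against 17.8% of the 11587 tested genes with a window. A longer core bound by YY1 was in 13 of the 69 (18.8%), against 2.56%, and one bound by the factor NRF1 was in 1 of the 69 (1.45%), against 2.15%. TATAAA was in 2.90%, against 6.30%, CCAAT in 29.0%, against 36.4%, and GGGCGG in 60.9%, against 68.7%. The letters were searched on both strands, and a match describes the letters only. Among genes that were higher after OTS964 in wild-type cells, described next, 16 of 39 held the ETS core, and among those that were lower 3 of 6 did, as did 10 of 24 that did not pass the test.

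Levels between genes were compared in TPM, a share of the transcripts in a library that corrects for transcript length. MRPL51 had the highest mean over all libraries at 438 TPM, followed by MRPL41 at 351 TPM, MRPL12 at 335 TPM, MRPL20 at 309 TPM and MRPS24 at 293 TPM, the highest of the small subunit. MRPL12 encodes the stalk protein that contacts translation factors, and MRPL51 encodes a protein found only in mitochondria. The lowest means were MRPL19 at 10.8 TPM in the large subunit and MRPS25 at 16.9 TPM in the small subunit. No gene of the family was listed at 0 throughout a group, and all 77 passed the filter on low counts.

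Summed over the family, TPM per wild-type library was 9159 ± 563 (SD, n = 8 libraries of 4 labelled lines) under DMSO and 7700 ± 304 with OTS964. The 8 DMSO libraries ran from 8284 to 9759 and the 8 OTS964 libraries from 7270 to 8108, with no overlap. In G579S the sums were 8681 ± 698 and 8360 ± 482, and the libraries overlapped. The large subunit went from 6503 ± 416 to 5670 ± 184 TPM in wild-type cells and the small subunit from 2656 ± 150 to 2030 ± 150 TPM. The ratio of large to small subunit TPM was 2.45 ± 0.04 (2.39 to 2.50) under DMSO and 2.80 ± 0.16 (2.62 to 3.04) with OTS964 in wild-type cells, and 2.39 ± 0.17 and 2.45 ± 0.16 in G579S. These sums are a description with no test, and TPM depends on everything else in a library. On the TMM scale used for the tests, all 8 wild-type OTS964 libraries lay above all 8 DMSO libraries for 16 genes of the family, against 5.09% of all genes tested, and below them for 1, against 10.1%.

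**Figure D1:**
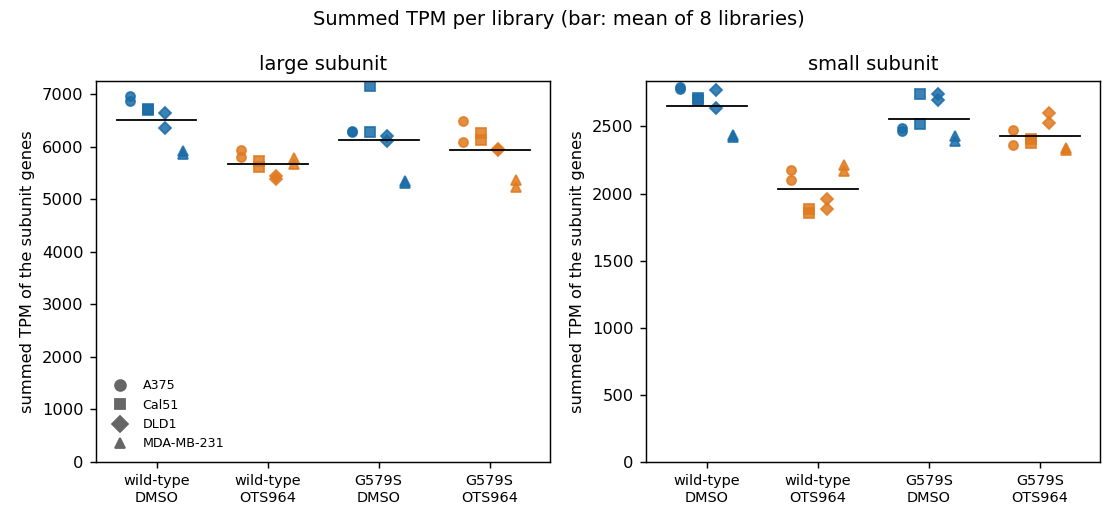
Summed TPM of the large subunit (left) and small subunit (right) genes in each library, by labelled genotype and treatment; symbols mark the labelled line, and the bar is the mean of 8 libraries. In wild-type cells the small subunit went from 2656 to 2030 TPM and the large from 6503 to 5670 TPM.

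With TMM scaling, most of the family was higher in wild-type cells after 6 h of OTS964 than after DMSO, and a small group was lower. Across the 4 labelled lines, 43 of 77 genes rose and 9 fell, while 25 did not pass (edgeR quasi-likelihood F test with line as a covariate, TMM scaling, Benjamini-Hochberg adjusted p under 0.05 over 14318 genes). Over all genes tested, 27.1% were higher and 31.8% lower. The median log2 fold change was 0.34 for the family and −0.11 for all genes. In the large subunit 31 of 51 rose and 6 fell (median 0.42), and in the small subunit 12 of 26 rose and 3 fell (median 0.22). The genes were also split by number alone, with MRPL1 to MRPL36, MRPS2 to MRPS21 and MRPS24 counted as having a bacterial counterpart. Homology was not checked gene by gene, so single genes may be in the wrong class. Among these 45 genes 24 rose and 4 fell (median 0.28). Among the other 32, counted as specific to mitochondria, 19 rose and 5 fell (median 0.48). The 10 small subunit genes counted as specific to mitochondria were split most evenly, with 4 higher and 3 lower and a median of 0.06.

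The direction of many of these calls depends on the scaling. TMM scales on the genes left after those with the most extreme ratios and levels are trimmed. With library totals in its place, the median of all genes moved by 0.54 to −0.65 and the family's median was −0.21. Of the family 20 genes were then higher and 34 lower, against 13.4% and 47.7% of all genes. Of all called genes 46.0% were higher with TMM and 21.9% with library totals. Both scalings called 20 family genes higher and 9 lower, and 2 that were higher with TMM were lower with library totals. Under each scaling 62 of the 77 lay above the median of all genes. A change of scaling shifts all genes by nearly the same amount, so these counts could hardly differ and are no separate support.

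**Figure D2:**
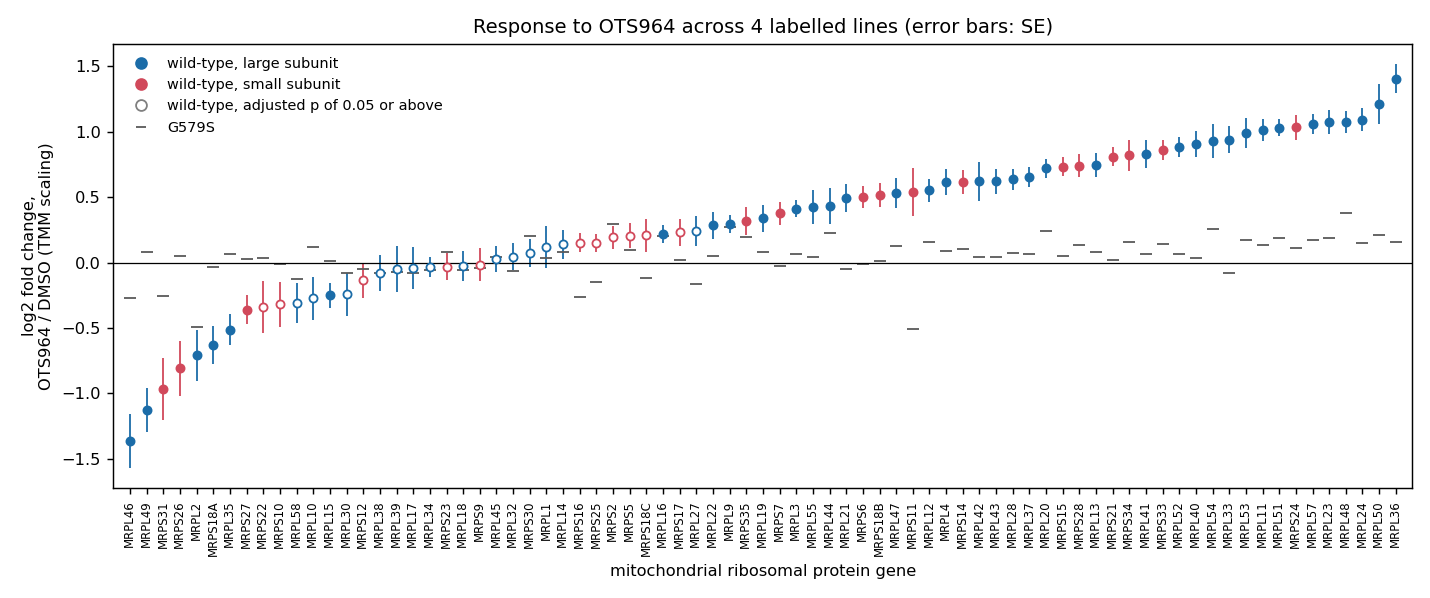
Log2 fold change of OTS964 over DMSO across the 4 labelled lines for the 77 genes, ordered by the wild-type value (points with SE, filled where the adjusted p was under 0.05; dashes give G579S), with TMM scaling. Values run from −1.36 for MRPL46 to 1.40 for MRPL36; with library totals 20 genes were higher and 34 lower.

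The genes that rose most were mainly of the large subunit. MRPL36, the counterpart of a small zinc-binding bacterial protein, was 23.7, 30.5 and 37.8 CPM (lowest, median and highest of 8 libraries; CPM is a count scaled to the library size with TMM) under DMSO and 60.7, 79.8 and 142 CPM with OTS964. No library of one treatment overlapped the other, and the highest was labelled DLD1 wild-type. Its log2 fold change was 1.40 ± 0.11 (SE; adjusted p = 6.6e-08), and 0.85 with library totals. MRPL50, a protein specific to mitochondria, was 25.0, 32.3 and 42.4 CPM under DMSO and 30.8, 93.4 and 113 CPM with OTS964. The treatments overlapped only through MDA-MB-231, whose OTS964 libraries stood at 30.8 and 39.1 CPM while the other 6 were at 81.9 CPM or above. Its log2 fold change was 1.21 ± 0.15 (adjusted p = 7.5e-06), and 0.66 with library totals.

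MRPL51, the most abundant of the family, was 70.8, 125 and 131 CPM under DMSO and 134, 241 and 329 CPM with OTS964. Both MDA-MB-231 values with OTS964 were 134 CPM, just above the highest DMSO library, so the treatments did not overlap. The log2 fold change was 1.03 ± 0.07 (adjusted p = 1.3e-08). MRPL24 (1.09 ± 0.09) and MRPL23 (1.07 ± 0.09) are counterparts of bacterial proteins near the exit of the peptide tunnel. The mitochondria-specific MRPL48 (1.07 ± 0.09) and MRPL57 (1.06 ± 0.07) rose about as much, as did MRPS24 (1.03 ± 0.10), the 1 small subunit gene among the 8 highest. With library totals these 5 and MRPL51 were still higher, by 0.48 to 0.54 on the log2 scale. Among the other abundant genes MRPL41 (0.83 ± 0.11) and MRPL20 (0.72 ± 0.08) were higher under both scalings, with 0.28 and 0.17 for library totals, while MRPL12 was 0.55 ± 0.09 with TMM and not called with library totals (0.0039).

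Of the genes that fell, MRPL46 fell furthest. It encodes a mitochondria-specific protein of the central protuberance of the large subunit. Under DMSO it was 18.9, 28.5 and 36.1 CPM and with OTS964 5.46, 11.7 and 17.3 CPM. It was the 1 gene of the family in which the wild-type treatments did not overlap in this direction, a pattern found in 10.1% of all genes. The log2 fold change was −1.36 ± 0.21 (adjusted p = 4.5e-05) and −1.91 with library totals. MRPL49 was 81.9, 114 and 129 CPM under DMSO and 23.1, 51.6 and 101 CPM with OTS964. Only its 2 MDA-MB-231 OTS964 libraries, at 101 and 87.3 CPM, reached the DMSO range. Its log2 fold change was −1.12 ± 0.17 (adjusted p = 4.5e-05).

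The small subunit genes MRPS31 and MRPS26, both specific to mitochondria, came next. MRPS31 was 15.5, 20.9 and 33.0 CPM under DMSO and 2.98, 15.8 and 21.7 CPM with OTS964, and the treatments overlapped. The 2 Cal51 libraries, at 3.30 and 2.98 CPM, were the lowest, and 1 MDA-MB-231 library at 9.09 CPM came next. Its log2 fold change was −0.97 ± 0.24 (adjusted p = 0.0025). MRPS26 (−0.81 ± 0.21) and MRPL2 (−0.71 ± 0.20), the counterpart of a bacterial protein beside the catalytic center, followed. Neither passed without the 4 libraries labelled DLD1 wild-type, with adjusted p of 0.055 for MRPS26 and 0.053 for MRPL2; then 41 genes of the family were higher and 6 lower. MRPS18A (−0.63 ± 0.14), MRPL35 (−0.51 ± 0.12), MRPS27 (−0.36 ± 0.11) and MRPL15 (−0.25 ± 0.09) complete the 9, and all 9 were lower with library totals too.

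**Figure D3:**
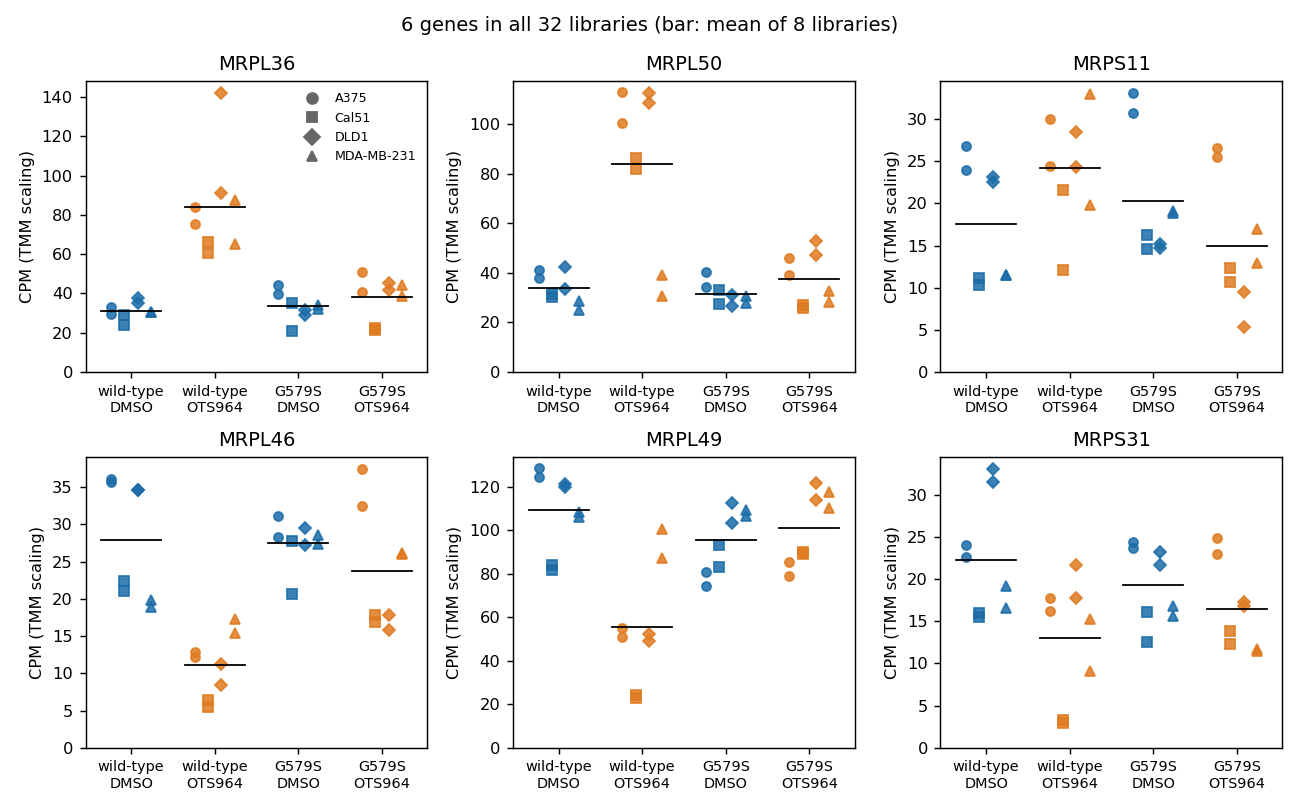
CPM with TMM scaling of 6 genes in all 32 libraries, by labelled genotype and treatment; symbols mark the line and the bar is the mean of 8 libraries. MRPL36 and MRPL46 separated the wild-type treatments completely, MRPL50 and MRPL49 did so except in MDA-MB-231; MRPS11 was higher only with TMM scaling.

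Of 6 back-to-back pairs in which both genes passed, 2 moved together and 4 in opposite directions with TMM scaling. The split over such pairs of all genes was not computed, and of all genes 27.1% were higher and 31.8% lower. Neighbours outside the family are given with TMM scaling only. MRPL46 and MRPS11, whose starts lie 320 bases apart, had log2 fold changes of −1.36 and 0.54 ± 0.18 (adjusted p = 0.019) in wild-type cells; with library totals MRPS11 was at −0.01 and not called. MRPS11 libraries overlapped between treatments, from 10.3 to 26.8 CPM under DMSO and from 12.1 to 33.0 CPM with OTS964. MRPL49 and FAU, which encodes a cytosolic ribosomal protein fused to a ubiquitin-like one, start 49 bases apart and had −1.12 and 1.24 (adjusted p = 3.9e-09 for FAU). MRPS27 (−0.36) and PTCD2 (−1.05), 133 bases apart, both fell. MRPL51 (1.03) and NCAPD2 (0.32, adjusted p = 0.00056), 840 bases apart, both rose with TMM scaling. The value of NCAPD2 was smaller than the 0.54 by which the scalings differed at the median of all genes. MRPL57 rose by 1.06 beside SKA3, a gene of chromosome segregation 106 bases away, at −0.65, and MRPL40 rose by 0.91 beside the histone chaperone gene HIRA, 812 bases away, at −1.01. Of the 77 genes 18 overlap another coding gene in their annotated span, among them MRPL36 with NDUFS6, MRPL24 with HDGF, MRPL49 with SYVN1, MRPL2 with KLC4, MRPS24 with a read-through gene and MRPS18A with RSPH9, and how reads from shared exons were split between such genes is not known.

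Shorter transcripts had the higher values, in the family as among all genes. Of 17 genes of the family with a mean transcript under 800 bases 14 rose and 0 fell (median 0.86), of 24 between 800 and 1200 bases 13 rose and 3 fell (0.36), and of 36 longer ones 16 rose and 6 fell (0.17). Over all genes tested 66.6% were higher and 2.48% lower in the shortest class (median 1.06), 55.5% and 9.80% in the middle class (0.74), and 23.9% and 34.4% in the longest (−0.23). The share of the family that rose in the middle class, 54.2%, was near that of all genes. Spearman's rho between length and log2 fold change was −0.42 over the 77 genes and −0.32 over 14254 genes, given as a description because genes share their libraries. For the number of exons it was −0.28 and −0.14, and for the level under DMSO −0.09 and 0.12. The 9 genes that fell were MRPL46 (1000 bases), MRPS26 (1039), MRPS18A (1190.3), MRPL2 (1288), MRPS31 (1339), MRPL15 (1749), MRPL49 (2101), MRPS27 (2779) and MRPL35 (3211), and MRPL57, at 2658 bases, rose.

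**Figure D4:**
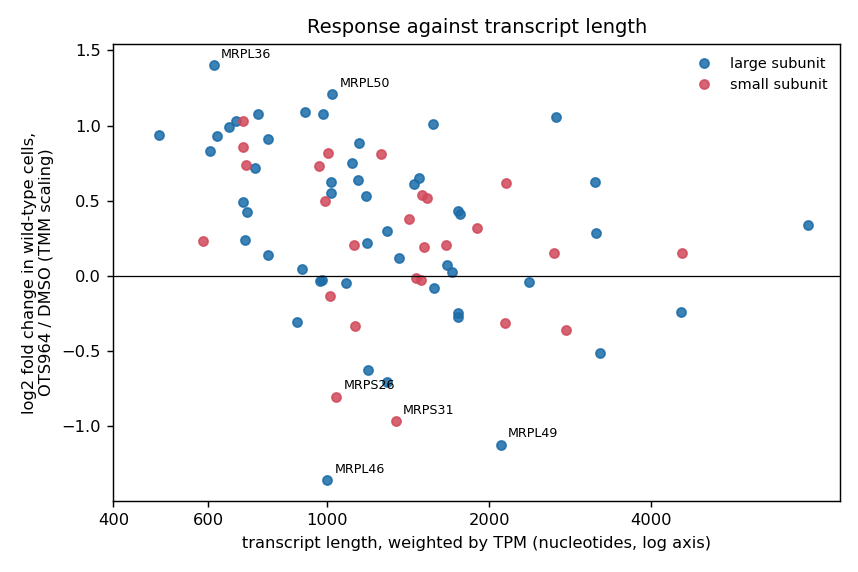
Log2 fold change in wild-type cells (TMM scaling) against mean transcript length on a log axis, 1 point per gene, coloured by subunit. All 17 genes under 800 bases lie above 0 with TMM scaling and 14 of them passed the test; MRPL46, MRPS26, MRPS31 and MRPL49 lie lowest. With library totals the family's median was −0.21.

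Within single lines the count of higher and lower genes differed. In A375 32 genes rose and 6 fell (median 0.30), against 20.8% and 25% of all genes, and with library totals 7 rose and 26 fell, against 9.37% and 35.4%. In Cal51 37 rose and 17 fell (median 0.34), against 24.9% and 27.8%, and with library totals 15 and 40, against 11.5% and 42.1%. In the libraries labelled DLD1 wild-type 36 rose and 12 fell (median 0.34), against 22.2% and 27.7%, and with library totals 8 and 31, against 10.4% and 40.4%. In MDA-MB-231 50 rose and 2 fell (median 0.56), against 24.1% and 22.4%, and with library totals 20 and 16, against 11.6% and 34%. With library totals the shares of the family that rose and that fell were thus both near those of all genes in A375 and in the libraries labelled DLD1 wild-type. These within-line tests came from 1 edgeR fit of all 16 groups.

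Across the labelled lines 24 genes (31.2%) rose in all 4, against 13.6% of all genes. Of the 24, 17 were of the large subunit and 7 of the small. The libraries labelled DLD1 wild-type had melanocyte and mesenchymal-like marker sums nearer A375 wild-type than DLD1 G579S. The 4 labels therefore may not stand for 4 separate cell types. No gene fell in all 4 by this test, against 13.3% of all genes, and 6 passed in no line. MRPL36 was 1.35 in A375, 1.26 in Cal51, 1.68 in the libraries labelled DLD1 and 1.33 in MDA-MB-231. MRPL50 led in A375 (1.43) and Cal51 (1.45), and MRPL48 was also among the 3 highest in A375 (1.01) and in the libraries labelled DLD1 (1.31). In Cal51 MRPL23 (1.36) and MRPL53 (1.32) followed, and in MDA-MB-231 MRPS24 (1.30) and MRPL24 (1.27).

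MRPL46, MRPL49 and MRPS26 fell in 3 labelled lines, the libraries labelled DLD1 wild-type among them, and did not pass in MDA-MB-231. MRPL46 went from 35.7 and 36.1 CPM to 12.2 and 12.9 CPM in A375 (−1.52 ± 0.15), from 21.0 and 22.3 to 5.46 and 6.44 CPM in Cal51 (−1.87 ± 0.16), and from 34.7 and 34.6 to 11.3 and 8.48 CPM in the libraries labelled DLD1 (−1.81 ± 0.16). In MDA-MB-231 it went from 19.8 and 18.9 to 17.3 and 15.4 CPM (−0.24), which did not pass. That line thus began at the level of Cal51. MRPL49 was −1.25 in A375, −1.81 in Cal51 and −1.25 in the libraries labelled DLD1, and −0.19 in MDA-MB-231, where it did not pass. MRPS26 fell by 1.16, 1.14 and 1.27 in the same 3 lines and was 0.40 in MDA-MB-231. MRPS31 fell by 2.32 in Cal51, its lowest value in any line.

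A test of the MDA-MB-231 response minus the mean of the other 3 wild-type lines, chosen after these values were seen, called 25 genes higher and 2 lower, against 16.1% and 8.3% of all genes. The differences were 1.59 ± 0.21 for MRPS26 (adjusted p = 1.5e-05), 1.49 ± 0.17 for MRPL46 (3.3e-06), 1.37 ± 0.22 for MRPL2 (8.6e-05) and 1.25 ± 0.10 for MRPL49 (4.2e-08). MRPL17, a counterpart of a bacterial large subunit protein, differed by 1.15 ± 0.21. In the other direction stood MRPL50 (−1.10 ± 0.17) and MRPL44 (−0.88 ± 0.17), 2 proteins specific to mitochondria. With library totals these 7 kept their direction and their call. Without the libraries labelled DLD1 wild-type the test called 24 higher and 2 lower, and without MDA-MB-231 wild-type OTS964 replicate 2 it called 9 lower.

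The 2 MDA-MB-231 wild-type OTS964 libraries differed from each other by a chi-square per degree of freedom of 86.0, next to the highest of all pairs. Of its 2 genes called lower, MRPL35 (−0.63) did not pass without OTS964 replicate 1, and MRPS31 (−0.55) did not pass without that library or without DMSO replicate 2. Without OTS964 replicate 2 the line had 5 genes lower, and without OTS964 replicate 1 or DMSO replicate 2 it had 1.

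In 5 of the 77 genes the lines passed in opposite directions, against 4.4% of all genes, so the count is near that of all genes. Each had MDA-MB-231 on the higher side. MRPL58, which releases peptides from stalled ribosomes, was −0.71 in Cal51, −0.65 in the libraries labelled DLD1 and 0.47 in MDA-MB-231, and −0.04 there with library totals. MRPS12, of the decoding center, was −0.52 in A375, −0.57 in the libraries labelled DLD1 and 0.54 in MDA-MB-231 (0.02 with library totals). MRPL39 was −1.07 in Cal51 and 0.50 in MDA-MB-231 (−0.01 with library totals). MRPL45, which helps hold the ribosome at the inner membrane, was −0.39 and 0.37 in those lines (−0.13 in MDA-MB-231 with library totals), and MRPL18 was −0.37 in the libraries labelled DLD1 and 0.56 in MDA-MB-231 (0.05 with library totals). With 1 library left out, which leaves an arm of 1, the fold changes that had passed kept their direction while some calls were lost. Values that had not passed changed sign for MRPL45 in the libraries labelled DLD1 (−0.20 to 0.12) and MRPS12 in Cal51 (−0.012 to 0.015). MRPL58 in MDA-MB-231 was 0.41 without DMSO replicate 1 and 0.42 without OTS964 replicate 1, and MRPL18 in the libraries labelled DLD1 was −0.29 without DMSO replicate 1 and −0.25 without OTS964 replicate 1, and none of these passed. MRPS12 did not pass in A375 without DMSO replicate 2 (−0.51) or OTS964 replicate 2 (−0.45), in the libraries labelled DLD1 without OTS964 replicate 2 (−0.49), or in MDA-MB-231 without DMSO replicate 1 (0.53), DMSO replicate 2 (0.54) or OTS964 replicate 1 (0.36).

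**Figure D5:**
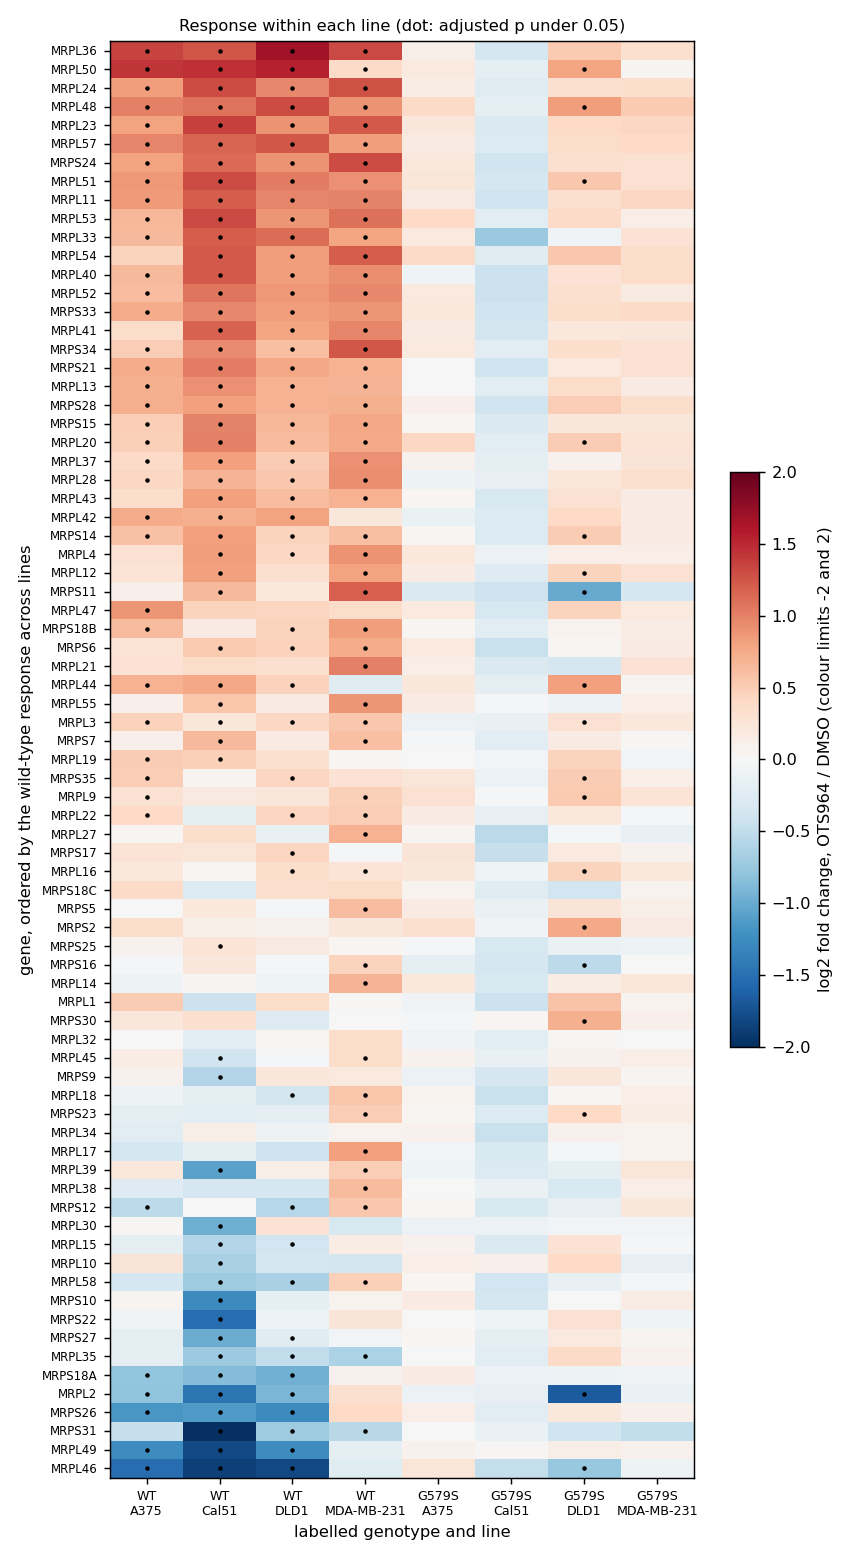
Log2 fold change of OTS964 over DMSO (TMM scaling, colour limited at −2 and 2) for the 77 genes in rows and the 8 combinations of labelled genotype and line in columns; a dot marks an adjusted p under 0.05. In the wild-type columns 24 genes passed as higher in all 4, against 13.6% of all genes. With library totals 7, 15, 8 and 20 genes were higher in the order of the columns, against 9.37%, 11.5%, 10.4% and 11.6%. The G579S columns hold calls only in DLD1.

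In G579S cells no gene of the family passed across the 4 lines by edgeR's quasi-likelihood test, against 1.26% of all genes higher and 1.17% lower. At an unadjusted p under 0.05 there were 12, of which 6 were higher, DESeq2 called 4 higher and 3 lower, and the median was 0.05. With library totals 5 were lower, against 4.96% of all genes. The count rested on 1 library: without Cal51 G579S DMSO replicate 2, 17 genes were higher and 1 lower. Without MDA-MB-231 G579S OTS964 replicate 2, 1 was lower. MRPL36 was 20.8, 33.2 and 44.5 CPM under DMSO and 21.4, 41.2 and 50.7 CPM with OTS964 (0.15 ± 0.13, adjusted p = 0.535), and MRPL49 was 74.3, 98.4 and 113 CPM and 78.9, 100.1 and 122 CPM (0.08 ± 0.05, adjusted p = 0.385). The largest values were MRPS11 at −0.51 ± 0.13 (adjusted p = 0.052) and MRPL2 at −0.49 ± 0.20 (adjusted p = 0.17), and on the higher side MRPL48 at 0.38 ± 0.13 (adjusted p = 0.10), named after their values were seen.

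Within single lines, genes of the family passed in G579S only in DLD1 with all libraries in the fit, and whether the lines differed was not tested. In A375 0 genes passed, against 0.384% of all genes higher and 0.272% lower, with 4 at an unadjusted p under 0.05 and 0 by DESeq2. In Cal51 0 passed, against 0.14% and 0.251%, with 22 at an unadjusted p under 0.05, all of them lower, and 6 by DESeq2. Its 2 DMSO libraries stood apart from each other: without DMSO replicate 1 38 genes passed, and without DMSO replicate 2 0 did. In MDA-MB-231 0 passed, against 0.223% and 0.0838%, with 14 at an unadjusted p under 0.05 and 1 by DESeq2.

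In DLD1 G579S 14 genes rose and 4 fell, against 10.8% and 12.7% of all genes, and with library totals 5 rose and 12 fell, against 3.68% and 19.8%. The family's median was 0.23 with TMM and −0.014 with library totals. Without DMSO replicate 1 the total was 11, and without OTS964 replicate 1 it was 10. MRPL2 went from 34.8 and 32.3 CPM to 9.36 and 11.8 CPM (−1.66 ± 0.19, adjusted p = 4.9e-06), so the libraries did not overlap. MRPL46 went from 27.3 and 29.5 to 17.9 and 15.9 CPM (−0.75 ± 0.15, adjusted p = 0.0011). MRPS11, its back-to-back neighbour, went from 15.2 and 14.7 to 5.38 and 9.51 CPM (−1.01 ± 0.27), a call lost without OTS964 replicate 1. MRPL48 (0.83 ± 0.14), MRPL44 (0.83 ± 0.14), which encodes a protein with a ribonuclease fold, and MRPL50 (0.79 ± 0.15) were the highest. All 6 kept their direction and their call with library totals.

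The responses of the genotypes were compared directly by the interaction of genotype and treatment over all 32 libraries. Because the libraries labelled DLD1 wild-type went against their label, genotype and cell type cannot be told apart in the DLD1 part of this comparison. Without those 4 libraries the family's median difference was −0.35 with TMM scaling, against −0.013 for all genes. The DLD1 G579S libraries stayed in that fit. The G579S response was lower than the wild-type one in 39 genes and higher in 7, against 24.3% and 25.8% of all genes. With library totals the split was 15 lower and 27 higher, against 12.6% and 36.3% of all genes, so that the share that was higher was near that of all genes. The difference was −1.25 ± 0.17 for MRPL36 (adjusted p = 1.1e-06), −1.05 ± 0.23 for MRPS11, −1.02 ± 0.19 for MRPL33, −0.996 ± 0.20 for MRPL50 and −0.94 ± 0.13 for MRPL24. On the other side it was 1.20 ± 0.18 for MRPL49 (adjusted p = 3.2e-06), 1.09 ± 0.24 for MRPL46, 0.86 ± 0.23 for MRPS26, 0.71 ± 0.25 for MRPS31 and 0.60 ± 0.16 for MRPS18A. All 10 kept their direction and their call with library totals. MRPL33, a counterpart of a small bacterial large subunit protein, was 26.6, 37.9 and 44.7 CPM under DMSO and 52.9, 66.7 and 106 CPM with OTS964 in wild-type cells. In G579S it was 26.2, 30.0 and 51.9 CPM and 24.0, 31.4 and 43.4 CPM, so that only the wild-type treatments stood apart.

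Without drug, G579S cells were set against wild-type cells in each line. In A375 1 gene was higher and 2 were lower, against 4.39% and 5.38% of all genes. MRPL49 was 124 and 129 CPM in wild-type and 74.3 and 80.6 CPM in G579S (−0.71 ± 0.09, adjusted p = 1.45e-05), and MRPS33 was lower by −0.91 ± 0.16. MRPS21, at 0.64 ± 0.15, lost its call without either wild-type library or G579S replicate 2. In Cal51 3 were higher and 2 lower, against 10.3% and 6.74%. The Cal51 total ran from 0 without wild-type DMSO replicate 2 to 32 without G579S DMSO replicate 1, with 2 and 3 without the other libraries, and none of the 5 genes, MRPL53, MRPL34, MRPS14, MRPL3 and MRPS27, kept its call in all of these fits.

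In MDA-MB-231 2 genes were higher in G579S and 6 lower, against 2.74% and 4.55% of all genes, and between 1 and 3 passed when any 1 of the 4 libraries was left out. MRPS18B (0.77 ± 0.11, adjusted p = 0.000155) kept its call each time. MRPL51 was 71.9 and 70.8 CPM in wild-type and 43.8 and 46.2 CPM in G579S (−0.66 ± 0.14), a call lost without G579S replicate 1, and MRPL46 (0.53), MRPL21 (−0.71) and MRPS12 (−0.60) lost theirs without any of the 4. In DLD1 12 were higher and 22 lower, against 22.7% and 26.4%. MRPS9 (1.32 ± 0.15), MRPL23 (0.87 ± 0.17) and MRPS33 (0.74 ± 0.15) were highest, and MRPS21 (−1.78 ± 0.16), MRPL24 (−1.58 ± 0.14) and MRPS25 (−1.23 ± 0.11) lowest. Because the libraries labelled DLD1 wild-type went against their label, genotype and cell type cannot be told apart in DLD1. Its total was 22 without wild-type replicate 1, 20 without wild-type replicate 2 and 21 without G579S replicate 1.

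Levels without drug differed between lines for 49 genes in wild-type cells, against 67.8% of all genes, and for 66 in G579S, against 78.8% (edgeR F test over 4 lines). MRPS10, of the small subunit head, was widest in both. In wild-type cells it was at 29.4 TPM in A375, 31.2 TPM in the libraries labelled DLD1, 40.2 TPM in Cal51 and 164 TPM in MDA-MB-231. In G579S it ran from 19.4 TPM in A375 to 193 TPM in MDA-MB-231. MRPS21 was lowest in MDA-MB-231, from 26.7 TPM there and 39.8 TPM in Cal51 to 105 TPM in A375 and 125 TPM in the libraries labelled DLD1, and in G579S from 24.2 TPM in MDA-MB-231 to 152 TPM in A375. In DLD1 G579S it was 36.3 TPM.

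MDA-MB-231 wild-type was also the extreme for MRPL2, at 133 TPM against 40.5 to 52.6 TPM in the other lines. It was lowest for MRPS26, at 85 TPM against 187 to 238 TPM, and for MRPS34, at 127 TPM against 320 to 341 TPM. In G579S the next widest were MRPS33, from 55.2 TPM in A375 to 172 TPM in DLD1, MRPL24, from 88.0 TPM in DLD1 to 263 TPM in A375, and MRPS9, from 29.4 TPM in A375 to 87.5 TPM in DLD1.

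Transcript usage in the wild-type response could be tested for 22 of the 77 genes, those with at least 2 matched transcripts above the filter. None passed (edgeR's diffSpliceDGE with Simes p-values, adjusted over 6403 genes), against 6.09% of all genes tested, and 1 had an unadjusted p under 0.05. The lowest adjusted p was that of MRPS18A (0.22), whose main transcript held 94.1% ± 3.0 of its TPM under DMSO and 95.7% ± 2.3 with OTS964 (SD, n = 8). A minor transcript of MRPS18A went from 2.66% ± 2.50 to 0.22% ± 0.41. The largest change of a mean share, named after its values were seen, was in a transcript of MRPL55. It went from 4.49% ± 1.48 to 16.2% ± 7.97, and the gene did not pass (adjusted p = 0.73).

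Other genes of mitochondrial translation were counted from fixed lists in the same wild-type test. The counts in this paragraph and the next rest on TMM scaling, and of all genes 27.1% were higher and 31.8% lower. With library totals the median of all genes was 0.54 lower, and the lists were not counted with that scaling. Of 6 genes listed as encoding proteins of this ribosome under other names, 4 rose and 1 fell (median 0.61). The list held KGD4 (0.64 ± 0.12), and membership in the ribosome was not checked gene by gene. GADD45GIP1 (0.86 ± 0.08) and AURKAIP1 (0.81 ± 0.11) were highest, and PTCD3, a small subunit protein with RNA-binding repeats, was −0.20 ± 0.08. Of 27 tested assembly factors 9 rose and 14 fell (median −0.44), from the ribosomal RNA methyltransferase genes MRM1 (−3.23 ± 0.55) and NSUN4 (−2.08 ± 0.12) to C1QBP (0.98 ± 0.06) and the helicase gene DDX28 (2.16 ± 0.17).

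Of 17 translation factors 8 rose and 4 fell (median 0.31), with TUFM, the elongation factor that brings transfer RNA, at 1.12 ± 0.07 and SLIRP at 1.00 ± 0.07, and with TACO1 at −1.28 ± 0.22 and the rescue factor gene MTRFR at −1.07 ± 0.38. Of 20 genes that charge mitochondrial transfer RNA, 6 rose and 4 fell (median 0.0049). MARS2 (1.94 ± 0.29) and CARS2 (1.08 ± 0.07) were highest, and HARS2 (−1.43 ± 0.17) and QRSL1 (−1.24 ± 0.15) lowest. Of 14 genes of mitochondrial transcription and its nuclear regulators 11 fell and 1 rose (median −1.23). The coactivator gene PPRC1 (−3.65 ± 0.56) and the elongation factor gene TEFM (−2.55 ± 0.23) were lowest, while MYC rose (3.08 ± 0.24) and YY1 was −0.47 ± 0.14. NRF1 (−2.22 ± 0.28) and GABPA (−1.15 ± 0.19), named after their values were seen because their motifs were searched above, fell.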

How the data were processed

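The authors deposited 1 table per library with estimated counts and TPM for 87398 human RefSeq transcripts, per the file headers. The deposited estimated counts are not normalized, and the deposited TPM values are scaled by transcript length and library total. The sources used here do not name the quantification tool or its index. Groups came from titles. Transcripts were matched to symbols through RefSeq and GENCODE tables (42587 matched, holding 87.56% of the reads), and counts were summed per gene and rounded. The other reads were not used. The share of all reads on predicted transcripts was 8.97% to 9.46% with OTS964 and 11.38% to 12.47% with DMSO in wild-type libraries. No counting intervals are given, and spreads are SE, SD or ranges over libraries.

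Tests used edgeR 4.0.16 (R 4.3.3) quasi-likelihood with TMM and filterByExpr, and DESeq2 1.42.0 as an alternative, at an adjusted p of 0.05. The SE of a log2 fold change is its size divided by the square root of F. The code was tested on simulated data. Fits that leave out 1 library reuse the trended dispersion of the full fit. Assembly factors, translation factors, transfer RNA charging genes, other ribosome proteins, regulators and cell type markers came from fixed lists. The genes and lists were chosen with earlier results of these data known. Named genes are the 8 highest and 8 lowest called in the wild-type response, 5 each way in the interaction and in the MDA-MB-231 contrast, 3 each way within a line, the 5 most abundant, the 5 widest between lines, the most and least abundant of each subunit, and those called in opposite directions. Alternatives were library totals, no low-count filter, length-scaled TPM, a replicate block, a fold of 1.5, and leaving out libraries.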

Additional observations from a re-analysis of the deposited data

Results flagged for a closer look

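The response to OTS964 differed between genotypes in 46 of the 77 genes by the interaction test (edgeR quasi-likelihood, all 32 libraries). In the DLD1 part of this test genotype and cell type cannot be told apart. Of all genes 25.8% were higher and 24.3% lower in it. With library totals 27 of the family were higher and 15 lower, against 36.3% and 12.6% of all genes. The wild-type response was subtracted from the G579S response, and positive values mean a higher one in G579S. They were 1.20 for MRPL49, 1.09 for MRPL46, 0.86 for MRPS26, 0.71 for MRPS31 and 0.60 for MRPS18A on the log2 scale. Negative values were −1.25 for MRPL36, −1.05 for MRPS11, −1.02 for MRPL33, −0.996 for MRPL50 and −0.94 for MRPL24.

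The wild-type response differed between MDA-MB-231 and the mean of the other 3 labelled lines in 27 genes, in a contrast chosen after the values were seen. Of all genes 16.1% were higher and 8.3% lower in that contrast. The differences were 1.59 for MRPS26, 1.49 for MRPL46, 1.37 for MRPL2, 1.25 for MRPL49 and 1.15 for MRPL17, and −1.10 for MRPL50 and −0.88 for MRPL44.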

How the results depend on the processing

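With library totals the family's wild-type response was 20 higher and 34 lower (median −0.21), its G579S response 5 lower (median −0.064) and its interaction 27 higher and 15 lower (median 0.079). Within wild-type lines they were 7 and 26 in A375, 15 and 40 in Cal51, 20 and 16 in MDA-MB-231, with 8 and 31 in those labelled DLD1 wild-type, and A375 genotypes under DMSO gave 5 calls. Library totals also reversed MRPL19 (−0.21) and MRPS25 (−0.40) across lines, MRPL39 (−0.23 in A375, −0.42 in those labelled DLD1 wild-type, −0.012 in MDA-MB-231), MRPL45 (−0.29 in A375, −0.13 in MDA-MB-231), MRPL58 (−0.038 in MDA-MB-231) and MRPS12 (−0.70 in Cal51). A fold of 1.5 as well left 28 higher in the wild-type response, 23 lower in the interaction, 1 lower in MDA-MB-231 and 7 in libraries labelled DLD1 wild-type, 8 for DLD1 G579S, and 1, 14 and 4 between genotypes in Cal51, DLD1 and MDA-MB-231. DESeq2 called 4 higher and 3 lower in G579S, 6, 29 and 1 in Cal51, DLD1 and MDA-MB-231 G579S, 9, 11 and 13 between genotypes in A375, Cal51 and MDA-MB-231, and 6 lower in the MDA-MB-231 contrast, and it reversed MRPL18 in A375 (0.019) and MRPL45 in the libraries labelled DLD1 wild-type (0.14). MRPS12 in Cal51 was −0.011 with no low-count filter and −0.038 with length-scaled TPM. Without the libraries labelled DLD1 wild-type Cal51 genotypes gave 8 calls. The causes of these changes were not tested.

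Leaving out 1 library gave 0 to 17 higher and 0 to 1 lower in G579S, 0 to 38 in Cal51 and 10 to 14 in DLD1 G579S, 0 to 32, 20 to 23 and 1 to 3 between genotypes in Cal51, DLD1 and MDA-MB-231, 1 to 5 lower in MDA-MB-231 wild-type and 2 to 9 lower in its contrast. MRPL45 in the libraries labelled DLD1 wild-type ran from −0.20 to 0.12 and MRPS12 in Cal51 from −0.012 to 0.015. Replicate numbers did not pair the libraries: same-numbered deviations correlated between −0.03 and 0.08. With a replicate block the wild-type response had 41 higher and 8 lower and the interaction 7 higher and 39 lower. With 2 libraries a group, within-line tests take their spread from all 16 groups.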
